A study of Mus musculus with 10 samples.

Results

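The cytosolic ribosomal protein genes were followed in iKCs, as the labels name this mouse cell line, over 10 libraries. Gene symbols were taken if they began with Rpl or Rps followed by a digit, the letter p or the letter a. Symbols with -ps, those of the S6 kinases and those ending in Rik were left out. Of 94 symbols so found among 55866 genes, 8 stayed under 1 CPM (counts per 1000000 counts of the library) in every library: Rpl3l, Rpl6l, Rpl10l, Rpl32l, Rps3a3, Rps4l, Rps12l1 and Rps23rg1. The remaining 86 genes, 51 of the large (Rpl) and 35 of the small subunit (Rps) by name, are described here, and all 86 passed the expression filter. One of them, Rps19bp1, is named for a protein that binds Rps19 and does not itself encode a ribosomal protein.

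All cells carried a lentiviral vector (LV) and were sorted for its fluorescent marker mOrange and for viability before polyadenylated RNA was sequenced. The groups were miR-342-3p overexpression (3 libraries), a mutated miR-342-3p control (2 libraries), a miR-342-3p sponge (3 libraries) and a scramble control sponge (2 libraries). Overexpression and mutated control are called hairpin vectors below, and sponge and scramble are called sponge vectors. The titles name the libraries biological replicates of 1 cell line, with nothing on separate cultures or transductions, and any p-value below therefore rests on library-to-library spread, which may be technical. The study asked which genes differ between cells with the microRNA vectors and cells with control vectors.

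The cytosolic ribosome is built from ribosomal RNAs and a fixed set of proteins, nearly all in equal number, and the genes of these proteins are known for being expressed together at a high and even level. Their messenger RNAs typically begin with a C followed by a run of pyrimidines, the 5′ terminal oligopyrimidine (TOP) motif, through which the kinase mTOR and the protein LARP1 control their translation. A few have paralogs that can take the place of the canonical protein, and the genome holds very many processed copies of them, which makes their reads hard to assign. In macrophages, as in other cells, ribosomal protein synthesis takes a large part of the growth effort, and some ribosomal proteins also act outside the ribosome.

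The microRNA of the vectors, miR-342-3p, lies at chr12:108658680-108658702 on the plus strand (GRCm38.p6, RefSeq). It is shown with its seed, bases 2 to 8, in capitals, because the seed sets which 3′ UTRs it can pair with. Of 84 members with an annotated 3′ UTR, 3 held the matching 7-base site GTGTGAG on the sense strand, which is 3.57%, against 15.3% of 11832 other tested genes. None of the 3 sites was followed by the A that would make it the 8-base site. The members' 3′ UTRs had a median length of 166.5 bases, against 1142 bases in the other tested genes, so the shares are of UTRs of unequal length. The 3 sites are shown in 28 bases of UTR each, with the 7-base match in capitals.
miR-342-3p: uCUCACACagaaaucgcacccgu
Rpl31: ccaggtttatGTGTGAGcctaagattag
Rps15a: tgtttactgtGTGTGAGgcacaaagttt
Rpl7l1: agatttttgcGTGTGAGtacatgccaaa
The log2 fold change of overexpression over mutated control was 0.12 ± 0.14 for Rpl31, 0.03 ± 0.10 for Rps15a and 0.08 ± 0.08 for Rpl7l1 (± standard error, SE), with adjusted p of 0.628, 0.897 and 0.574 by edgeR, so none of the 3 passed the test.

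Start sites were read from RefSeq promoter windows (GRCm38.p6), which matched 65 members. At the annotated first base, 14 of 65 members (21.5%) had a C followed by at least 4 further pyrimidines (C or T, sense strand), against 2.93% of 10449 other tested genes and 3.01% of all 27025 genes with a window. Within 5 bases of the annotated start, 30 of 65 members (46.2%) had such a run, against 23.7% of the other tested genes. The windows below run from 10 bases before the start to 20 bases from it, with the run in capitals; they show 3 canonical genes with a run at the first base, the retrogene-named Rps27rt beside its partner Rps27, and Rplp0, whose window holds no run within 5 bases of the annotated start.
Rpl35, chr2:39005112-39005141, minus strand: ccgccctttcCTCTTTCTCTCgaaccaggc
Rps6, chr4:86857348-86857377, minus strand: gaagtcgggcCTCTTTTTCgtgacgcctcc
Rps18, chr17:33955646-33955675, minus strand: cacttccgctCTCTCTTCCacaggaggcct
Rps27, chr3:90213629-90213658, minus strand: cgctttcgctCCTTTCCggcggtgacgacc
Rps27rt, chr9:114982720-114982749, minus strand: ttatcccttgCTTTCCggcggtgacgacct
Rplp0, chr5:115559457-115559486, plus strand: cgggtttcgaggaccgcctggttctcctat
The members with a run and those without one had nearly the same median log2 fold change of overexpression over mutated control, 0.12 over 30 genes with a run and 0.10 over 35 genes without.

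Total counts lay between 25713110 and 59260772 per library. The Mir342 row held 8.22, 11.3 and 9.41 CPM in overexpression libraries and 2.86 and 3.22 CPM in mutated control libraries, and was at 0 in all 5 libraries with sponge vectors. Macrophage markers summed to between 5001 and 6105 CPM, although the Kupffer cell markers Clec4f and Timd4 were at 0 in every library. In the same list Vsig4 reached at most 0.0933 CPM, Marco lay between 2.60 and 4.26 CPM and Cd5l between 1.35 and 2.79 CPM. Hepatocyte markers summed to at most 0.0785 CPM, and lymphocyte, neutrophil and erythroid markers to at most 2.25 CPM. Endothelial and stellate cell markers summed to between 21.3 and 31.6 CPM, of which Kdr held 17.7 to 27.1 CPM. Of 4 such markers tested, 1 was lower with overexpression than with the mutated control (edgeR adjusted p = 0.0352). Counts of sponge replicate 3 and of a scramble library, called replicate 1 here, stand joined in 1 field of the deposited table and were separated by a likelihood rule. No member was among the 51 genes left out by that rule. As these 2 libraries are among the 3 with the highest ribosomal protein counts, values without them are given where they differ.

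The ribosomal protein genes took a like share of all counts in every group, and they varied more between libraries of a group than between groups. The 86 genes held 2.72%, 2.25% and 2.10% of counts in overexpression libraries, 2.19% and 2.17% in mutated control libraries, 2.26%, 2.30% and 2.62% in sponge libraries, and 2.47% and 2.20% in scramble libraries. The means were 2.35% ± 0.33 with overexpression (SD, n = 3), 2.18% ± 0.01 with the mutated control (SD, n = 2), 2.39% ± 0.20 with the sponge (SD, n = 3) and 2.34% ± 0.19 with the scramble (SD, n = 2). Overexpression replicate 1 stood highest, followed by sponge replicate 3 and scramble replicate 1, and the ranges of all groups overlapped except those of the mutated control and either sponge vector. Large-subunit genes held 1.42 ± 0.002 times the counts of small-subunit genes in overexpression libraries, 1.40 ± 0.002 times in mutated control libraries, 1.41 ± 0.01 times in sponge libraries and 1.40 ± 0.01 times in scramble libraries (SD). The 2 subunits thus kept nearly 1 ratio, whichever library stood high. In such bulk samples, fewer cells with a high level and less RNA per cell cannot be told apart.

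**Figure D1:**
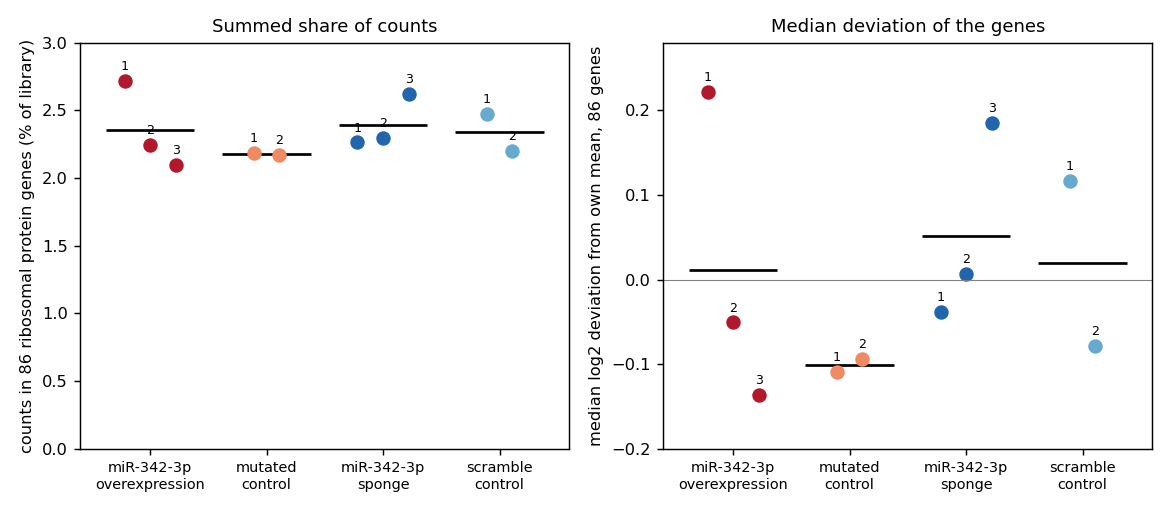
Left, the summed counts of 86 ribosomal protein genes as a percentage of each library's counts; right, the median over these genes of log2 level minus the gene's own mean over 10 libraries. Points are libraries numbered by replicate and lines are group means; overexpression replicate 1 stands highest in both plots, at 2.72% on the left.

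The genes moved as a block across libraries. A single component held 78.9% of the variance of the 86 genes over the 10 libraries, and the next components held 9.50% and 4.16%. Overexpression replicate 1 had the highest level of 56 genes, sponge replicate 3 of 22 and scramble replicate 1 of 7, and Rpl36al alone was highest elsewhere, in mutated control replicate 2. The lowest level was in overexpression replicate 3 for 49 genes. In all, 84, 18 and 3 genes stood above their own mean in overexpression replicates 1, 2 and 3, against 2 and 3 genes in the mutated control libraries. The counts were 13, 44 and 85 in the sponge libraries, and 79 and 6 in the scramble libraries. The same group thus held libraries near both ends. Beyond the members, the high libraries were alike only in part. Over all tested genes, overexpression replicate 1 correlated at 0.9978 with sponge replicate 3, and at 0.9972 and 0.9952 with overexpression replicates 2 and 3. With scramble replicate 1, also a high library, it correlated at 0.9955. Scramble replicate 1 in turn correlated at 0.9988 with scramble replicate 2 and at 0.9979 with sponge replicate 3.

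Differences between libraries of 1 group made up a median of 76.0% of a member's variance, against 58.4% over all 15767 tested genes; groups that did not differ would leave 66.7% on average, from the degrees of freedom. Total depth did not order the libraries in the same way: overexpression replicate 1 was the deepest, at 59260772 counts, while scramble replicate 2 had 57708592 counts and a share of 2.20%, and scramble replicate 1 had 33857569 counts and a share of 2.47%. Counts in the ribosomal RNA row Rn18s-rs5 were 557, 563 and 602 CPM in overexpression libraries and 1320 and 938 CPM in mutated control libraries. In sponge libraries they were 683, 559 and 576 CPM, and in scramble libraries 923 and 697 CPM. The mutated control libraries were thus the highest in ribosomal RNA and low in ribosomal protein counts; the part of ribosomal RNA carry-over in the values was not tested.

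**Figure D2:**
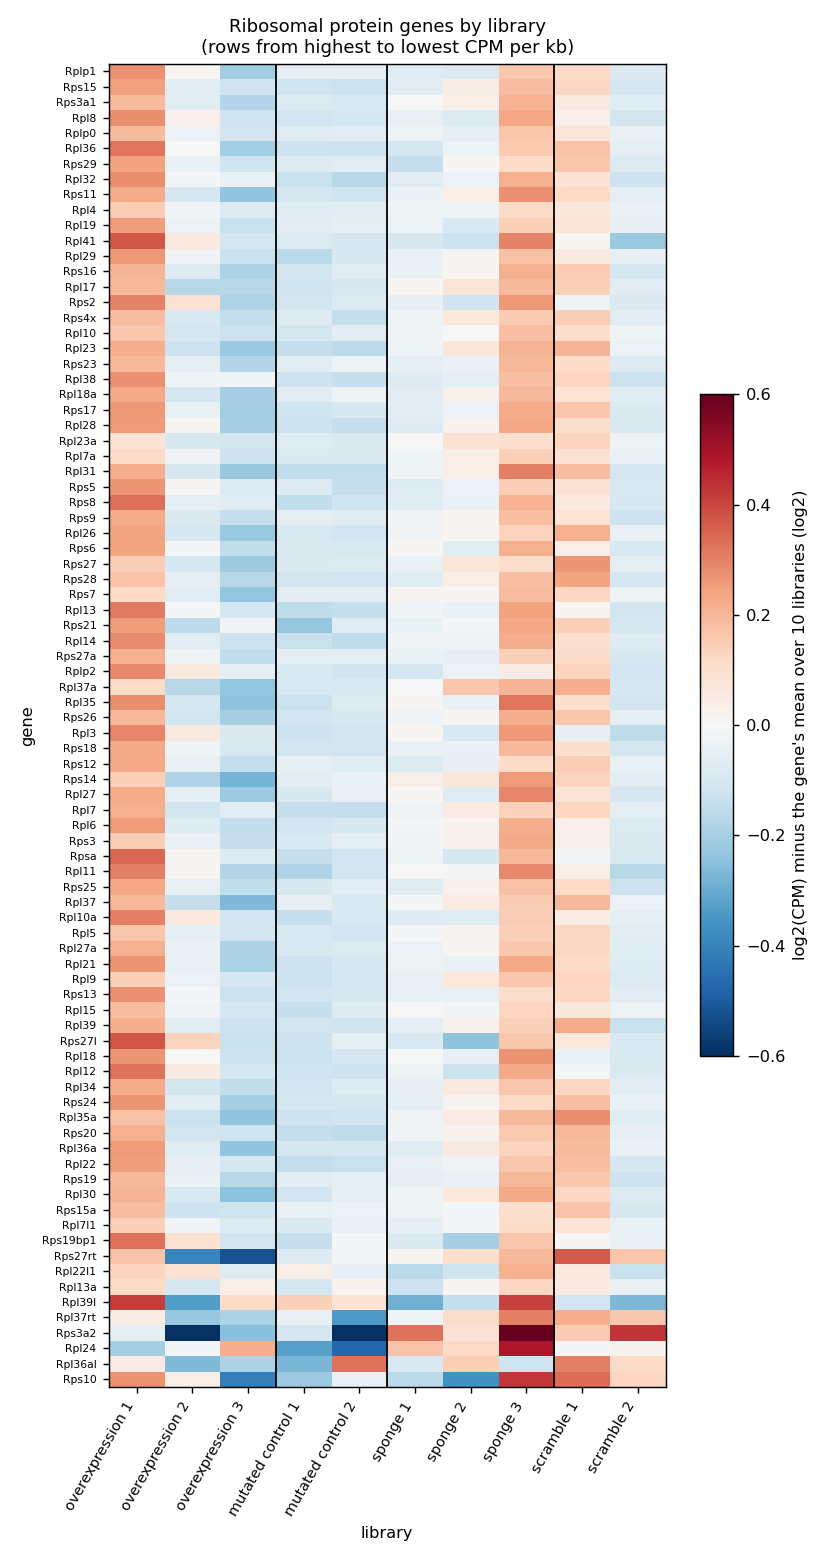
Colour gives log2 CPM of each of 86 genes (rows, from highest to lowest CPM per kb) in each library (columns) minus the gene's mean over 10 libraries. Overexpression replicate 1, sponge replicate 3 and scramble replicate 1 are red for most genes, and the last rows do not follow the others.

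Of the 86 genes, 8 shared under 50% of their variance over libraries with the median of the members: Rpl36al, Rpl24, Rps3a2, Rpl39l, Rps27rt, Rpl37rt, Rpl22l1 and Rpl13a. The median gene shared 89.2%. All 8 were among the 10 lowest genes by level per length. How far counting error set their pattern was not tested.

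By level per length, in CPM per kilobase (kb) of exonic length averaged over 10 libraries, the highest gene was Rplp1, at 856 CPM per kb. It encodes one of the acidic proteins of the stalk, the part of the large subunit that recruits translation factors. Rps15, a protein of the small-subunit head, had 547 CPM per kb. Rps3a1, another small-subunit protein, had 514 CPM per kb, and Rpl8, a large-subunit protein near the peptidyl transferase centre, had 413 CPM per kb. Rplp0, the protein on which the stalk is built, had 404 CPM per kb. All 5 are canonical ribosomal proteins. Exonic length joins all annotated exons of a gene, so this ranking depends on annotation. Rplp1 has 499 exonic bases, and its longest coding transcript in GENCODE vM21 also has 499. Rps24 has 6256 exonic bases, against 1613 in its longest coding transcript. By mean CPM without regard to length, Rplp0, at 670 CPM, stood above Rplp1, at 427 CPM.

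The lowest genes were Rps10 at 0.592, Rpl36al at 1.03, Rpl24 at 1.09, Rps3a2 at 2.07 and Rpl37rt at 2.68 CPM per kb. Rps10 and Rpl24 encode canonical proteins of the small and the large subunit, yet were listed far below their peers. In the deposited table, Rps10 shares 28.7% of its exonic bases with the row Gm49804, Rpl24 shares 47.0% with Gm28037, Rpl36al shares 24.5% with Gm49383 and Rpl13a, at 5.81 CPM per kb, shares 35.4% with Gm45713. The 4 members are overlapped by readthrough genes in the GENCODE vM21 annotation, which run from the ribosomal protein gene into its neighbour, and the 4 rows held a mean of 0 CPM. Of 12 members with over 20% of their exonic bases shared with another row, the 4 with a readthrough gene lay between 0.592 and 5.81 CPM per kb, and the other 8 between 51.8 and 342 CPM per kb. Per the file header, the counting command carried no option to assign a read to more than 1 gene; its part in these levels was not tested. The values of Rps10, Rpl24, Rpl36al and Rpl13a are therefore uncertain as levels of these genes.

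**Figure D3:**
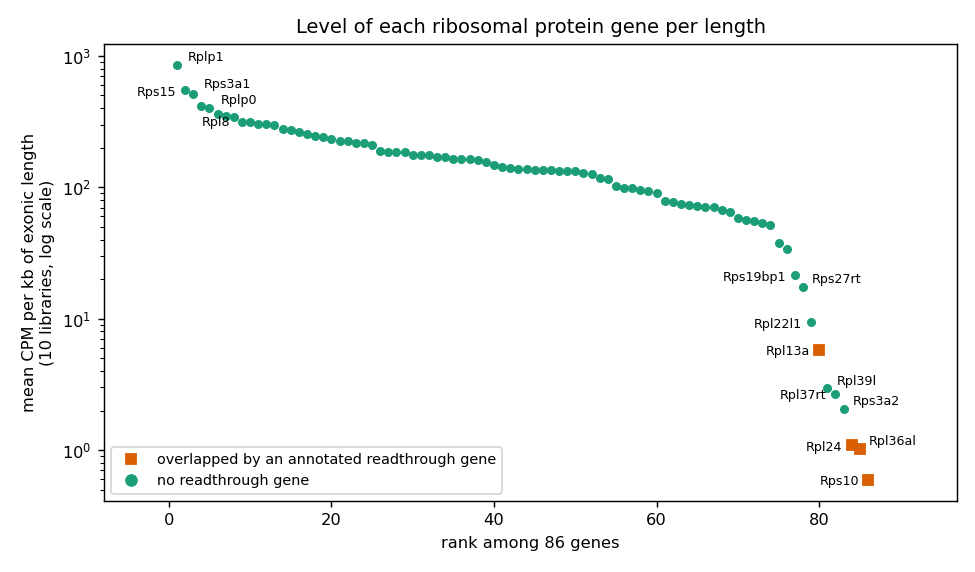
Mean level of each ribosomal protein gene in CPM per kb of exonic length (log scale) against its rank among 86 genes. Squares mark the 4 genes overlapped by an annotated readthrough gene, all between 0.592 and 5.81 CPM per kb, at the low end with the paralogs and retrogenes.

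Overexpression against its mutated control asks what the microRNA itself goes with. In this comparison 0 of 86 ribosomal protein genes passed an adjusted p of 0.05 by edgeR's quasi-likelihood test, where 0.539% of the 15767 tested genes did, and 0 of 86 had an unadjusted p under 0.05, against 18.2% of all tested genes. The median log2 fold change of the members was 0.10, and 82 of 86 lay above 0, against a median of -0.01 over all tested genes, of which 48.8% lay above 0. In 15 members the overexpression libraries lay entirely above the mutated control libraries, against 18.9% of all tested genes, and in 0 members entirely below, against 19.3%. The 95% interval of the fold change stayed within 1.5-fold in either direction for 82 of 86 genes. Without overexpression replicate 1, the median was -0.01 and 40 of 86 genes lay above 0, so the positive median rested on that library.

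The 5 genes with the smallest p were Rpl32, Rplp2, Rpsa, Rpl13 and Rpl38. Rpl32, a large-subunit protein, had 398, 325 and 318 CPM in overexpression libraries, against 299 and 292 CPM in mutated control libraries. All 3 overexpression libraries lay above both mutated control libraries, by a log2 fold change of 0.23 ± 0.11 (SE; edgeR adjusted p = 0.305). Rplp2, the partner of Rplp1 in the stalk, had 372, 316 and 293 CPM with overexpression, against 286 and 280 CPM with the mutated control. Rpsa, also known as the laminin receptor, had 506, 402 and 378 CPM in overexpression libraries and 362 and 367 CPM in mutated control libraries. For these 2 genes the log2 fold changes were 0.21 ± 0.10 for Rplp2 and 0.23 ± 0.12 for Rpsa, with adjusted p of 0.310 and 0.326 by edgeR. Rpl13 and Rpl38 showed 0.22 ± 0.12 and 0.21 ± 0.12, both with an adjusted p of 0.341 by edgeR. In all 5 genes the first overexpression library was the highest of the 10, and none passed the test.

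Sponge against scramble asks what sequestering the microRNA goes with. Here 0 of 86 members and 0% of all tested genes passed the adjusted threshold by edgeR; at an unadjusted p under 0.05 the counts were 0 of 86 members and 368 of 15767 genes (2.33%), and DESeq2 called 1 gene of the table and 0 members. The members' median log2 fold change was 0.02, with 60 of 86 above 0, against 49.3% of all tested genes. In 1 member, Rpl24, the sponge libraries lay entirely above the scramble libraries, against 6.9% of all tested genes. Rpl3, the large-subunit protein next to the peptidyl transferase centre, had the smallest p, with 437, 407 and 519 CPM in sponge libraries and 420 and 390 CPM in scramble libraries. Its groups overlapped, and its log2 fold change was 0.17 ± 0.12 (SE; edgeR adjusted p = 1). Next came Rpl24 at 0.25 ± 0.19, Rpl18 at 0.14 ± 0.12, Rpl11 at 0.16 ± 0.13 and Rps3 at 0.11 ± 0.10, all with an adjusted p of 1 by edgeR. Without the libraries with joined counts, the median was 0.06, with 72 of 86 genes above 0. Without sponge replicate 3 alone, 11 of 86 genes lay above 0, with a median of -0.04, without scramble replicate 2 alone it was 19 of 86, with a median of -0.07, and without scramble replicate 1 alone it was 81 of 86, with a median of 0.13.

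The mutated control against the scramble compares the 2 control vectors with each other. No member passed, 0 of 86 against 0.0254% of all tested genes, and 1 of 86 had an unadjusted p under 0.05, against 6.47% of all. The median log2 fold change was -0.12, and 3 of 86 genes lay above 0, where 50.5% of all tested genes did. In 53 members both mutated control libraries lay below both scramble libraries, against 24.2% of all tested genes, and in 1, Rpl39l, they lay above, against 24.1%. Without scramble replicate 1, a library with joined counts, the median was -0.03 and 25 of 86 genes lay above 0. The 5 smallest p belonged to Rps3a2, Rpl37rt, Rps20, Rpl24 and Rpl23. Rps20, a small-subunit protein, had 215 and 212 CPM in mutated control libraries, against 271 and 229 CPM in scramble libraries, a log2 fold change of -0.23 ± 0.12 (SE; edgeR adjusted p = 0.837). Rpl23, a large-subunit protein that can bind the p53 regulator Mdm2, had 386 and 383 CPM in mutated control libraries and 492 and 416 CPM in scramble libraries, a log2 fold change of -0.24 ± 0.14 with an adjusted p of 0.855 by edgeR. In both genes the mutated control libraries nearly coincided and the scramble libraries lay apart.

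Overexpression set against the scramble shares the overexpression libraries with the first comparison and the scramble libraries with the others. The median log2 fold change was -0.003 over 86 genes, with 40 above 0, against 47.7% of all tested genes. No member passed by edgeR, against 0.0444% of all genes, and 2 of 86 had an unadjusted p under 0.05, against 13.4% of all. Rps27rt had 7.22, 4.88 and 4.47 CPM in overexpression libraries, against 8.30 and 7.22 CPM in scramble libraries, a log2 fold change of -0.45 ± 0.17 (SE; edgeR adjusted p = 0.308). Overexpression replicate 1 lay just above the lower scramble library, so the groups overlapped. Rpl3 and Rpl36al, also among the 5 smallest p with Rps3a2 and Rpl37rt, showed 0.19 ± 0.12 and -0.31 ± 0.20, with adjusted p of 0.492 and 0.529 by edgeR. Without the libraries with joined counts the median was 0.10, with 76 of 86 genes above 0. Without overexpression replicate 1 alone it was -0.12, with 11 of 86 genes above 0, and without scramble replicate 2 alone it was -0.10, with 15 of 86.

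**Figure D4:**
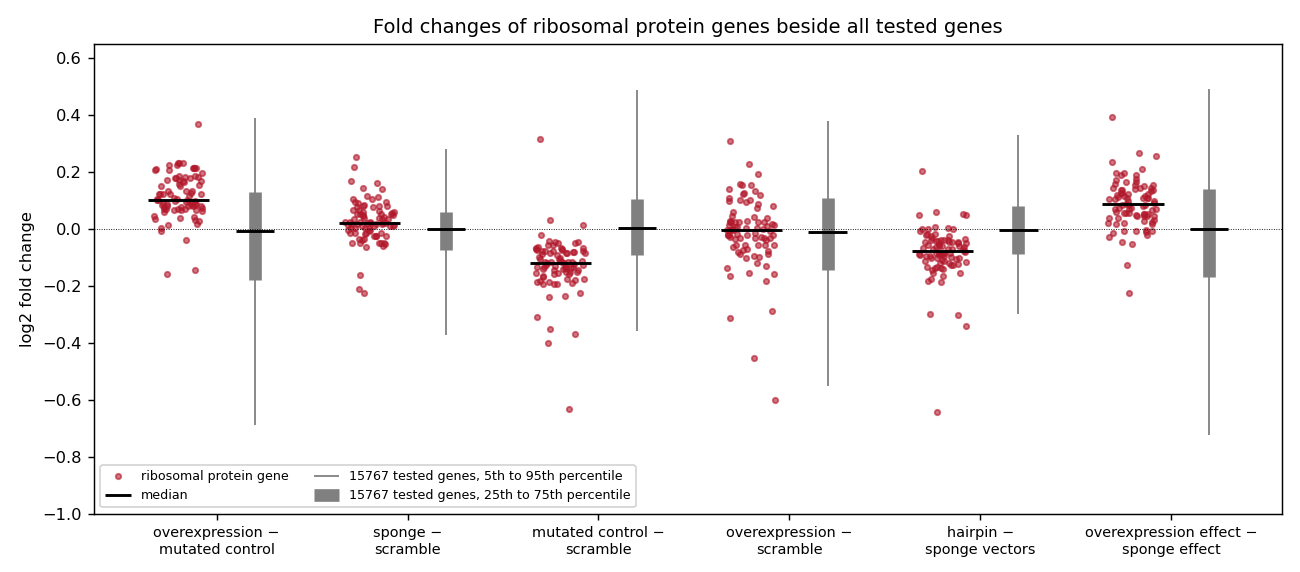
Log2 fold change of each of 86 ribosomal protein genes (points, with their median as a line) beside the range of 15767 tested genes (bars) in 6 comparisons. The members' medians run from -0.12 for mutated control over scramble to 0.10 for overexpression over mutated control, and the members are less spread than all tested genes.

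The difference between the overexpression effect and the sponge effect was tested as an interaction. It gave 0 members and 0% of all genes at the adjusted threshold by edgeR; at an unadjusted p under 0.05 it gave 0 of 86 members and 1271 of 15767 genes (8.06%), and DESeq2 called 48 genes and 0 members. The median was 0.09, with 74 of 86 above 0, against 50.1% of all tested genes, and 12 below 0, against 49.9%. Without overexpression replicate 1 it was -0.02, and without scramble replicate 1 it was -0.01. Rplp2 had the smallest p, at 0.26 ± 0.15 (SE; edgeR adjusted p = 0.682), followed by Rps27l, Rpl10a, Rps13 and Rpl36, at 0.27 ± 0.20, 0.20 ± 0.16, 0.19 ± 0.15 and 0.23 ± 0.19. A test for any difference among the 4 groups called 0 of 86 members, against 0.419% of all tested genes, and 2 of 86 had an unadjusted p under 0.05, against 16.1% of all. Those 2 were Rps3a2 (adjusted p = 0.222 by edgeR) and Rpl24 (adjusted p = 0.297 by edgeR), and Rps27rt, Rpl37rt and Rpl37a came next.

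Between hairpin vectors and sponge vectors, 0 of 86 members passed by edgeR, against 0.241% of all tested genes, and 5 of 86 (5.81%) had an unadjusted p under 0.05, against 14.1% of all. The median log2 fold change was -0.08, with 8 of 86 genes above 0, against 48.8% of all tested genes. Without the libraries with joined counts the median was 0.02 and 52 of 86 genes lay above 0, so the direction turned. The gene with the smallest p was Rps3a2, named as a copy of Rps3a1. It had 1.52, 1.00 and 1.32 CPM in overexpression libraries and 1.47 and 1.04 CPM in mutated control libraries. In sponge libraries it had 1.98, 1.67 and 2.48 CPM, and in scramble libraries 1.75 and 2.12 CPM. All 5 libraries with hairpin vectors lay below all 5 with sponge vectors, which held in this direction for 2.11% of all tested genes and for no other member. The log2 fold change was -0.64 ± 0.17 (SE; edgeR adjusted p = 0.125). DESeq2 called it, with a log2 fold change of -0.64 and an adjusted p of 0.0395, among 390 genes that it called in all.

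The libraries did not separate by vector in its partner Rps3a1, which had 570, 477 and 443 CPM in overexpression libraries and 473 and 469 CPM in mutated control libraries, against 501, 513 and 579 CPM in sponge libraries and 520 and 476 CPM in scramble libraries. The groups overlapped, with a log2 fold change of -0.09 ± 0.07 (SE; edgeR adjusted p = 0.657). Per exonic length, counts of Rps3a2 were 0.319% ± 0.055 of those of Rps3a1 with overexpression (SD, n = 3) and 0.329% ± 0.078 with the mutated control (SD, n = 2). By the same measure they were 0.473% ± 0.065 of those of Rps3a1 with the sponge (SD, n = 3) and 0.483% ± 0.095 with the scramble (SD, n = 2).

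Rpl37rt, Rpl24, Rps27rt and Rpl37a completed the 5 smallest p, with log2 fold changes of -0.30 ± 0.11, -0.34 ± 0.14, -0.30 ± 0.12 and -0.19 ± 0.08, and adjusted p of 0.268, 0.292, 0.299 and 0.342 by edgeR. Rpl37rt had 2.06, 1.70 and 1.75 CPM in overexpression libraries and 1.93 and 1.57 CPM in mutated control libraries, against 1.96, 2.15 and 2.46 CPM in sponge libraries and 2.32 and 2.23 CPM in scramble libraries. Rpl37a, a canonical large-subunit protein, was far more abundant, and its hairpin and sponge vector libraries overlapped. Rps3a2, Rpl37rt and Rps27rt are near-copies of other members, so reads could have been divided between copy and partner in counting, and their levels are uncertain. Of the 100-base stretches of the Rps27rt transcript in GENCODE vM21, 10.5% occurred in no other gene, and Rps27 held most of the others.

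Annotated pseudogenes of ribosomal protein genes, the rows with -ps in their symbols, were no members but are copies of them. Their 322 rows summed to 93.3, 69.8 and 73.5 CPM in overexpression libraries and 84.6 and 85.0 CPM in mutated control libraries. They summed to 95.8, 95.1 and 107 CPM in sponge libraries and 100.2 and 99.9 CPM in scramble libraries, scaled to all counts. In this sum, all 5 libraries with hairpin vectors lay below all 5 with sponge vectors. Of 64 such rows tested singly, 6 separated in this direction, against 2.11% of all tested genes. A negative log2 fold change was found in 53 of 64, against 51.2% of all tested genes, with a median of -0.26. The test by edgeR was passed by 1 row, Rps16-ps2 (log2 fold change -0.69, adjusted p = 0.0496), against 0.241% of all tested genes. Overexpression against mutated control gave a median of 0.03 and 0 of 64 called by edgeR. There 7 rows had an unadjusted p under 0.05, against 18.2% of all tested genes. Mitochondrial transcripts took 1.31% ± 0.04 of counts with hairpin vectors and 1.41% ± 0.06 with sponge vectors (SD, n = 5 each). The values overlapped between the vector types, and this difference was not tested. The part of read assignment in these values was not tested.

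**Figure D5:**
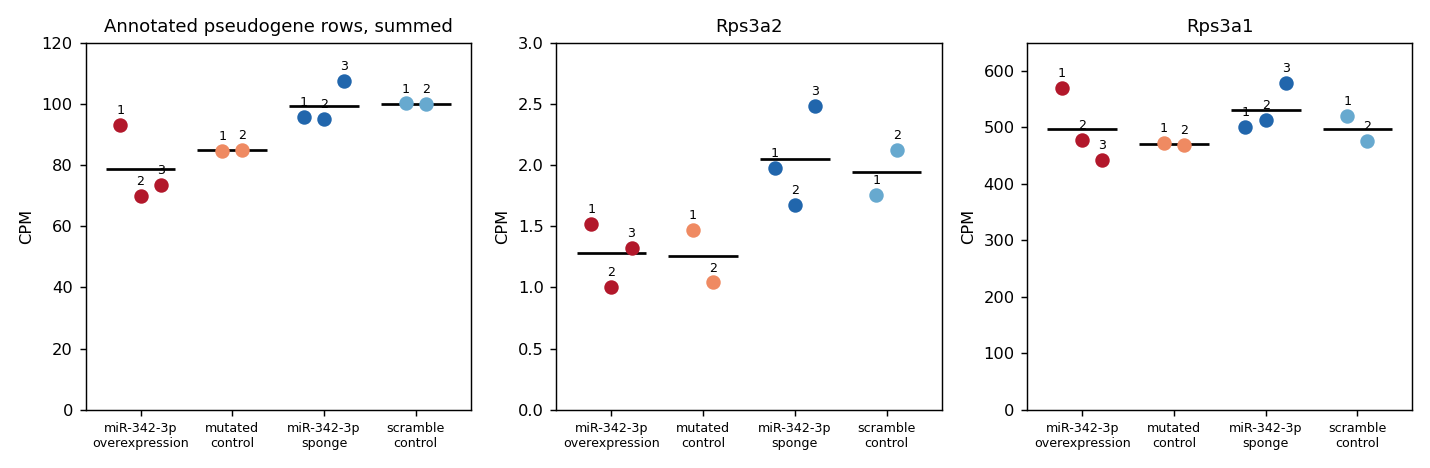
Levels in CPM by library of 322 annotated ribosomal protein pseudogene rows summed, of Rps3a2 and of Rps3a1. Points are libraries numbered by replicate and lines are group means; in the first and second plots all hairpin vector libraries lie below all sponge vector libraries, in the third they overlap.

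The paralogs are compared with their partners by counts per exonic length. As this length joins all annotated exons, the size of a ratio depends on annotation, while its relative changes between libraries do not. Rpl22l1 has 1989 exonic bases and a longest coding transcript of 552 bases in GENCODE vM21, and Rpl22 has 2911 and 2051. For Rpl36al the lengths are 1353 and 1276 bases, and for Rpl36a 1655 and 483. Rps27l, a p53-responsive relative of Rps27, reached 48.5% ± 2.9 of the level of Rps27 with overexpression (SD, n = 3), against 42.6% ± 1.3 with the mutated control (SD, n = 2). The ratio was 40.0% ± 5.1 with the sponge (SD, n = 3) and 39.4% ± 3.3 with the scramble (SD, n = 2). The 3 overexpression libraries stood between 45.2% and 50.3%, above all other libraries, the next of which was sponge replicate 3 at 44.4%. Rps27l itself had a log2 fold change of 0.23 ± 0.14 and Rps27 of 0.04 ± 0.11 for overexpression over mutated control, and neither passed (adjusted p of 0.394 and 0.878 by edgeR). Rpl22l1, which can replace Rpl22, held 15.5% to 19.0% of the counts per length of Rpl22 over the 10 libraries. Rpl7l1, which acts in large-subunit assembly, held 24.4% to 27.4% of those of Rpl7. Rpl39l, known from male germ cells, held 3.10% to 4.71% of those of Rpl39. Rpl36al held 1.51% to 2.41% of those of Rpl36a, with the doubt on its level given above. Rpl3l and Rpl10l, known from striated muscle and testis, stayed under 1 CPM, and so did Rps4l.

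None of the members with roles of their own passed the test. Rpl5 and Rpl11, which with 5S ribosomal RNA form the particle that binds Mdm2, had log2 fold changes of 0.11 ± 0.09 and 0.21 ± 0.13 for overexpression over mutated control (edgeR adjusted p of 0.520 and 0.416). Rplp0 and Rplp1 of the stalk had 0.09 ± 0.10 and 0.09 ± 0.13. Rps27a, made as a fusion with ubiquitin, had 0.08 ± 0.11, and Rps19bp1, an activator of the deacetylase Sirt1, had 0.20 ± 0.13. The 16 members known as Diamond-Blackfan anaemia genes in humans had a median of 0.10, all above 0, beside 0.10 for the 86 members. Of the canonical partners not yet given, Rpl7, Rpl10, Rpl22, Rpl36a, Rpl39 and Rps4x had log2 fold changes between 0.07 and 0.18, and none passed.

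In 18 other translation genes known for TOP messenger RNAs, such as the elongation factor Eef1a1, the medians were 0.11 for overexpression over mutated control and -0.09 for mutated control over scramble, with 0 of 18 called in either. The 44 ribosome assembly factors are the nucleolar and cytoplasmic proteins that build the subunits. Their median was 0.20 for overexpression over mutated control, with 43 of 44 above 0, against 48.8% of all tested genes. For overexpression over scramble it was 0.23, with 43 of 44 above 0, against 47.7% of all tested genes. For hairpin over sponge vectors it was 0.16, also with 43 of 44 above 0, against 48.8% of all tested genes. For mutated control over scramble it was 0.04, with 29 of 44 above 0, against 50.5%. For sponge over scramble it was -0.04, with 13 of 44 above 0, against 49.3%. The part of overexpression replicate 1 in these medians was not tested. They summed to between 2791 and 3280 CPM in overexpression libraries, between 2675 and 2785 CPM in mutated control libraries, between 2351 and 2800 CPM in sponge libraries and between 2594 and 2699 CPM in scramble libraries. None of the 44 passed by edgeR in any comparison. An unadjusted p under 0.05 by edgeR was found in 18 of 44 for overexpression over mutated control, against 18.2% of all tested genes. It was found in 23 of 44 for overexpression over scramble, against 13.4%, and in 20 of 44 for hairpin over sponge vectors, against 14.1%. For sponge over scramble it was found in 0 of 44, against 2.33%, and for mutated control over scramble in 0 of 44, against 6.47%.

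In 14 tested RNA polymerase I genes the median for overexpression over mutated control was 0.13, and in 8 chaperones of single ribosomal proteins 0.25, again with 0 called. Among 20 regulators, 0 were called; Myc, a transcription factor that drives ribosome production, had the smallest p of them and was chosen for it after its values were seen. It had 89.0, 88.6 and 68.2 CPM in overexpression libraries and 59.8 and 66.0 CPM in mutated control libraries, against 42.1, 37.7 and 60.3 CPM in sponge libraries and 45.3 and 53.3 CPM in scramble libraries. The log2 fold change of hairpin over sponge vectors was 0.58 ± 0.13 (SE; edgeR adjusted p = 0.0794), and the vector types overlapped only between mutated control replicate 1 and sponge replicate 3. In 11 genes of ribosome surveillance the median for overexpression over mutated control was 0.00, with 0 of 11 called.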

How the data were processed

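Values in the deposited file are raw counts, not normalized, made by the authors with featureCounts 2.0.1 by gene name and strand setting 0, per the file headers, so that overlapping and antisense genes are not separable. STAR 2.7.6a, Trimmomatic and FastQC 0.11.6 with build GRCm38 are named in the submitters' processing notes. The header names 12 libraries, and 10 are analysed here. Groups came from the titles.

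Lines hold 15 fields under 16 names; the joined counts of sponge replicate 3 and a scramble library were split at the likeliest place (negative binomial, dispersion 0.1), keeping splits at least 100 times likelier than the next. Of 19 intact pairs joined on purpose, the lowest recovery was 99.9%. The scramble libraries' numbers are uncertain.

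edgeR 4.0.16 (quasi-likelihood, robust, TMM, expression filter) in R 4.3.3 fitted all 10 libraries (6 residual degrees of freedom), with Benjamini-Hochberg values over 15767 genes at a threshold of 0.05. It was tested on simulated data, in which each gene was drawn independently. Shifts shared by many genes of a library, as seen in the members, were not simulated. DESeq2 1.42.0, limma-voom (limma 3.58.1), other scalings, filters, blocks and left-out libraries were alternatives. Levels are CPM with TMM factors; shares use all counts. A log2 fold change is given with its SE. Total counts of 25713110 to 59260772 per library set the precision; the SE of a member's log2 fold change had a median of 0.12 for overexpression over mutated control.

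Members and lists were chosen with earlier results of these data known. Members were named if past the threshold or, where none was, as the 5 with the smallest p; the 5 highest and lowest per kb and the members of role lists were also named. Seed sites came from GENCODE vM21 3′ UTRs (longest per gene). Protein sequences were not used here. The list of ribosomal proteins outside the naming rule is not reported here.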

Additional observations from a re-analysis of the deposited data

Results flagged for a closer look

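The summed share of the 86 ribosomal protein genes in overexpression replicate 1, 2.72% of counts, stood apart from the other 4 libraries with hairpin vectors, the nearest of which held 2.25%. This library was at a distance of 0.756 of the whole range from its neighbour. Of 14 sets of 5 libraries examined in this way (the share, the pseudogene sum and the 5 members with the smallest p between vector types, in each vector type), this was the 1 that stood out, and chance marks about 5% of sets.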

How the results depend on the processing

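All 680 recomputed log2 fold changes kept their direction over 23 alternatives. They were of the members with the smallest p in each comparison, chosen from these same data, so a kept direction was likely from the start. Other named members were not among the 680. Of all 86 members, between 40 and 84 lay above 0 for overexpression over mutated control, depending on the alternative. For sponge over scramble the number lay between 11 and 81. No member was called in the comparisons or alternatives other than the following. Without the expression filter, 2 members passed for overexpression over mutated control (Rpl32 and Rpsa), 1 for overexpression over scramble (Rps27rt), and 1 each between vector types and for any difference (Rps3a2 in both). Over all genes, 1390, 747, 660 and 1707 passed there, in the same order. DESeq2 called 1 between vector types (Rps3a2), leaving out overexpression replicate 1 called 1 there (Rps27rt, adjusted p 0.0361), so this count ranged from 0 to 1 over left-out libraries, and fitting only the groups compared called 1 for mutated control over scramble (Rpl23). Over all genes, 390, 183 and 574 were called in these settings, in the same order. The cause was not tested.

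Counts over all genes moved far more. In the order overexpression over mutated control, mutated control over scramble, overexpression over scramble, hairpin over sponge vectors, interaction and any difference, they were 1390, 149, 747, 660, 331 and 1707 without the filter (and 24 for sponge over scramble), 496, 82, 234, 390, 48 and 851 with DESeq2 (1 for sponge over scramble), and 307, 21, 20, 246, 13 and 300 with the length trend removed. Upper quartile factors gave 25 between vector types and 2 for the interaction, for which factors without the members and stricter splits gave 5 each. Without the libraries with joined counts they were 1 for mutated control over scramble, 3 for overexpression over scramble and 6 between vector types. With only the groups compared they were 34 for overexpression over mutated control and 574 for mutated control over scramble. Leaving out 1 library at a time gave 0 to 279, 0 to 36, 1 to 37, 4 to 183, 0 to 7 and 12 to 273 in the same order.

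Whether the replicate numbers pair the samples could not be decided. Deviations from the mean of a group of 2 libraries mirror each other, and the scramble numbers are uncertain. Over 13 pairs of libraries, correlations of deviations ran from -0.70 to 0.30 by title number, and to 0.17 by library number. By title number 2 were above 0.1, both of overexpression with scramble (0.30 and 0.25), and by library number 1 was. With a replicate block by title number the counts were 0 for overexpression over mutated control, 1 for mutated control over scramble, 3 for overexpression over scramble, 6 between vector types and 5 for any difference; with a block by library number they were 0 for overexpression over mutated control, 1 for mutated control over scramble, 9 between vector types and 6 for any difference. 0 members were called under either block.

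Left-out libraries moved the members' median log2 fold change to between -0.01 and 0.19 for overexpression over mutated control, -0.07 and 0.13 for sponge over scramble, -0.21 and -0.03 for mutated control over scramble, -0.12 and 0.09 for overexpression over scramble, -0.02 and 0.17 for the interaction, and -0.14 and -0.03 between vector types. Removing the length trend gave medians of 0.07 for overexpression over mutated control and -0.09 for mutated control over scramble. Without the 10 highest members the summed share was 1.82% with overexpression, 1.69% with the mutated control, 1.86% with the sponge and 1.82% with the scramble, and without mitochondrial genes and Rn18s-rs5 it was 2.21% with the mutated control. Depth limits the lowest members, at 1 to 3 CPM; groups of 2 and 3 libraries limit the rest.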
